A study of Homo sapiens with 12 samples.

Results

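The superfamily of miR-10, miR-99 with miR-100, and miR-125 was followed across 12 small RNA libraries of human HCT116 colorectal carcinoma cells. Its members were taken by name from the table of read counts: hsa-miR-10a-5p, hsa-miR-10a-3p, hsa-miR-10b-5p, hsa-miR-99a-5p, hsa-miR-99b-5p, hsa-miR-99b-3p, hsa-miR-100-5p, hsa-miR-125a-5p and hsa-miR-125b-5p, written without the species prefix below. These are 9 of 1277 mature miRNAs. The 1277 were left after keeping, for each name, its line of highest count and merging 9 pairs of names with matching reads.

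All cells were DROSHA-KO, and all received 4.5 µg of the plasmid pXC-NLS-DG4. DROSHA, an RNase III of the nucleus, makes the first cut in nearly all primary miRNA transcripts. The second plasmid was pCK empty, pCK-DROSHA wild type, pCK-DROSHA_m4 or pCK-DROSHA_belt_deletion, with 3 libraries for each. The DROSHA plasmids were given at 4.5 µg too, and the amount of pCK empty was not given in the sources used here. The groups are called empty, wild type, m4 and belt deletion below. The labels do not say what m4 alters, what the DG4 plasmid codes for, whether the knockout line is 1 clone, or whether the repeats are separate cultures. The p-values therefore measure only the spread between these libraries, which may be technical.

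The family is an old one in animals. The miR-10 genes lie inside the HOX clusters, which pattern the body axis. The miR-99 and miR-100 genes sit beside a let-7 and a miR-125 gene on shared primary transcripts, and miR-125 is the relative of lin-4, a timer of larval development in worms. DROSHA and its partner DGCR8 release each hairpin, and DICER then cuts off the loop, leaving a 5p strand and a 3p strand. The seed, bases 2 to 8 of the mature strand, is the part that chiefly pairs with target messages.

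Mature sequences were found in RefSeq (GRCh38.p14) for 8 of the 9 members. They are printed 5′ to 3′ with the seed in capitals, because they show which members share a seed and which are near-identical.
miR-10a-5p: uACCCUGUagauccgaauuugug
miR-100-5p: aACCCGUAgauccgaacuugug
miR-99a-5p: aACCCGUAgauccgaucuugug
miR-99b-5p: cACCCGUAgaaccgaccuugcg
miR-125a-5p: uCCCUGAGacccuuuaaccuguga
miR-125b-5p: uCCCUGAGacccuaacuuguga
miR-10a-3p: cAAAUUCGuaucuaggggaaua
miR-99b-3p: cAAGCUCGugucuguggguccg
The seed ACCCGUA was carried by miR-99a-5p, miR-99b-5p and miR-100-5p and by no other human mature miRNA of that table. The seed CCCUGAG was carried by miR-125a-5p, miR-125b-5p and miR-4319, which is not in the count table. Counted from 1 at the 5′ end, miR-99a-5p differs from miR-100-5p by U16A alone, whereas miR-99b-5p differs from miR-100-5p by C1A, A11U, C16A and C21U. The lengths of miR-10a-5p and miR-100-5p differ, and 3 edits separate them. miR-125a-5p and miR-125b-5p share their first 13 bases. How the counting treated reads that fit several of these was not given in the sources used here, so values within the pairs miR-10a and miR-10b, miR-99a and miR-100, and miR-125a and miR-125b are uncertain to that extent.

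Both arms of 2 hairpins are among the members. The hairpins are printed with the 5p and the 3p mature strand in capitals, because the results on arms below concern these strands.
MIR10A: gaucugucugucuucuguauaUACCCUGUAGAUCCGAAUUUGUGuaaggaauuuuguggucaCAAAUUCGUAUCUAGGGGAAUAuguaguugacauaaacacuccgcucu
MIR99B: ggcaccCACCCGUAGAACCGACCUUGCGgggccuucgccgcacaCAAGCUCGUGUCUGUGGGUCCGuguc
MIR10A (chr17:48579838-48579947, minus strand, GRCh38) lies in an intron of HOXB3, and some HOXB4 transcripts have an exon over it, on the same strand. MIR99B (chr19:51692612-51692681, plus strand) lies in an intron of SPACA6 and opposite an exon of the long noncoding RNA SPACA6P-AS. The GC content was 39.1% for the MIR10A hairpin and 67.1% for MIR99B, and the median of 739 human hairpins with both arms annotated was 52.6%. The stretch between the mature strands was 18 bases in MIR10A and 16 bases in MIR99B, where the median was 16.

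The other members come from neighbouring or separate hairpins. MIR10B lies in an intron of HOXD3 (chr2:176150303-176150412, plus strand). MIRLET7E begins 104 bases after MIR99B, and MIR125A follows MIRLET7E after a further 389 bases, each within an intron of SPACA6. MIR100, MIRLET7A2 and MIR125B1 lie in introns of the long noncoding RNA MIR100HG on chromosome 11, and MIR99A, MIRLET7C and MIR125B2 in introns of MIR99AHG on chromosome 21. Reads of miR-125b-5p could come from MIR125B1 or MIR125B2, which give the same mature 5p sequence.

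The libraries held 101886 to 332081 reads after collapsing. Library sizes were taken from miRNAs that mature without DROSHA, and levels below are scaled reads, that is, reads divided by this size factor. The 9 members took 0.281% ± 0.0340 (SD, n = 3) of the collapsed reads in the empty group, 3.83% ± 0.793 in wild type, 1.66% ± 0.589 in m4 and 3.66% ± 0.917 in the belt deletion group. All 5 epithelial markers listed for a check of the cell line (miR-200a, miR-200b, miR-200c, miR-141 and miR-429) were in the table, with summed levels of 85.1 to 109.8 scaled reads with empty plasmid and 117.7 to 339.7 with the belt deletion. All 7 intestinal markers were in the table too, with sums of 1837 to 2541 with empty plasmid and 48383 to 104797 with wild type. These sums were nearly all miR-21-5p, at 1786 to 2465 with empty plasmid and 47315 to 102715 with wild type. With wild type the next highest, miR-378a-3p, ran from 986 to 1924. miR-192-5p, miR-194-5p and miR-215-5p reached at most 37.8, 5.63 and 7.20 scaled reads there. Of the 3 muscle markers 1 was in the table, at 1.80 scaled reads or less. The 5 blood cell markers summed to at most 2.77 scaled reads in any library, and miR-142-3p and miR-223-3p were not in the table. The endothelial marker miR-126-3p ran from 7.68 to 12.03 scaled reads with empty plasmid and from 273 to 499 with wild type. Of the neuronal markers, miR-124-3p was not in the table and miR-9-5p ran from 18.6 to 22.6 with empty plasmid and from 58.6 to 75.6 with wild type. The smooth muscle markers miR-143-3p and miR-145-5p summed to 110 to 168 with empty plasmid, 90.1 to 156 with wild type, 109 to 261 with m4 and 159 to 210.2 with the belt deletion. The liver marker miR-122-5p ran from 67.7 to 88.7, 34.8 to 56.3, 23.6 to 85.9 and 33.8 to 61.9 in the same order. The part of these markers in the results was not tested.

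**Figure D1:**
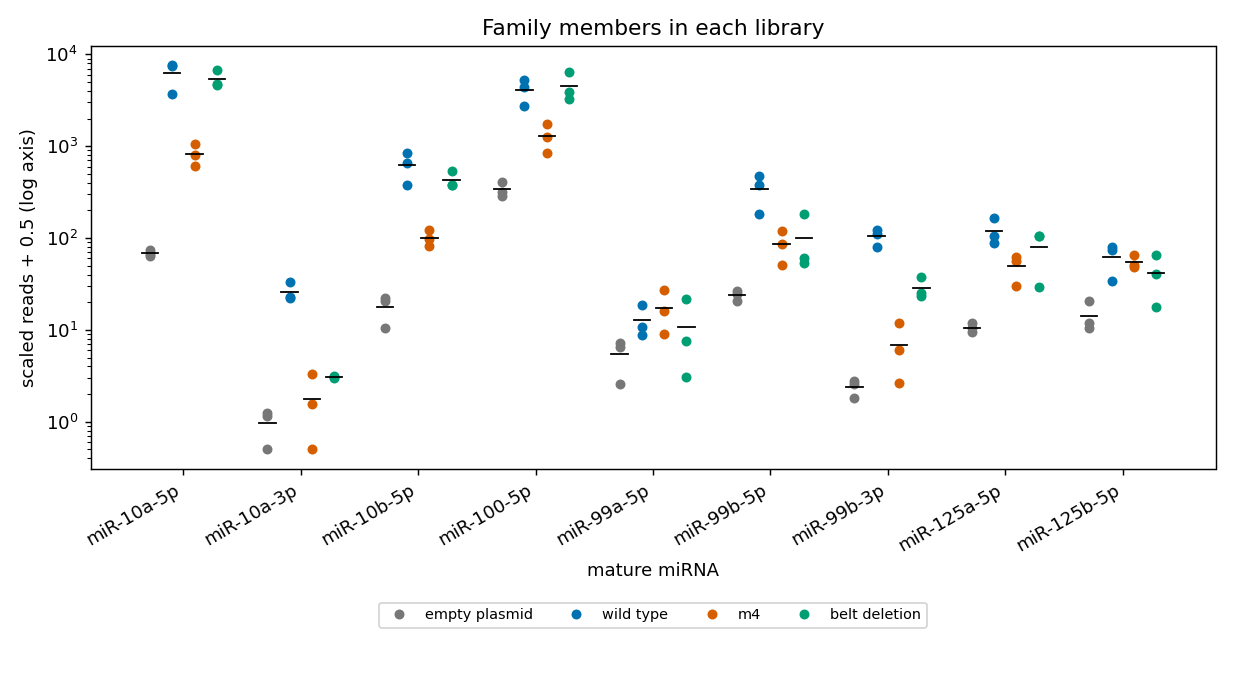
Scaled reads + 0.5 of each of the 9 members (log axis) in each of the 12 libraries, with points coloured by group and a bar at the group mean (n = 3). miR-10a-5p and miR-100-5p stood highest with wild type, at means of 6239 and 4136 scaled reads.

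All 9 members passed the filter on low counts, but miR-10a-3p passed it through the wild-type libraries alone, so its difference from wild type was built into its selection. In comparisons with wild type, counts of members are therefore given for the other 8, and miR-10a-3p is described by its reads and by a fit of all 1277 miRNAs without a filter. With wild-type DROSHA, 7 of the other 8 members rose over empty plasmid by edgeR's quasi-likelihood test with Benjamini-Hochberg adjustment over 310 miRNAs (adjusted p under 0.05). Over all 310, 42.6% were called higher. The libraries of both groups did not overlap for any of these 8 members, as was so for 52.3% of all 310. The median log2 change was 3.74 over the 8 members and 0.73 over all 310 miRNAs. miR-99a-5p would not have passed the filter without the m4 libraries, where its mean was highest. Its differences from m4 therefore carry the same limit as those of miR-10a-3p from wild type.

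Among the 5p members, the 2 from HOX clusters had the largest log2 changes. miR-10a-5p was at 74.4, 67.0 and 63.1 scaled reads in the 3 empty libraries and at 7409, 7627 and 3681 with wild type. These groups lay apart, and wild type replicate 3 was the lowest of its group. The log2 change was 6.51 (SE 0.41, edgeR adjusted p = 4.4e-23). miR-10b-5p, whose gene lies in the HOXD cluster, went from 21.8, 20.2 and 9.96 scaled reads to 834, 662 and 373. Its log2 change was 5.16 (SE 0.40, edgeR adjusted p = 2.3e-19), again without overlap.

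miR-100-5p, a known repressor of MTOR, was the most abundant member without DROSHA. It was at 408, 286 and 318 scaled reads with empty plasmid and at 4418, 5238 and 2753 with wild type, a log2 change of 3.62 (SE 0.37, edgeR adjusted p = 2.8e-14). The near-identical miR-99a-5p stayed low, at 6.02, 2.09 and 6.64 scaled reads with empty plasmid and 8.40, 17.98 and 10.14 with wild type. Every wild-type library was above every empty one for miR-99a-5p, but these values rest on 3 to 10 reads per library, and the log2 difference of 1.24 (SE 0.63) was not called (edgeR adjusted p = 0.12). With summed reference reads as the scale it was called (1.70, edgeR adjusted p = 0.035).

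miR-99b-5p was at 26.3, 20.2 and 23.9 scaled reads with empty plasmid and at 468, 378 and 184 with wild type, a log2 change of 3.86 (SE 0.46, edgeR adjusted p = 6.5e-10). Its partner strand miR-99b-3p was at 2.26, 2.09 and 1.33 scaled reads and then at 109, 122.3 and 78.9, a log2 change of 5.69 (SE 0.51, edgeR adjusted p = 1.3e-16). For both strands the groups were far apart. miR-10a-3p had 1, 0 and 1 reads in the empty libraries and 27, 12 and 20 with wild type, so the level without DROSHA rests on 2 reads. Without a filter its log2 difference was 5.45 (SE 0.81, edgeR adjusted p = 3.3e-10 over 1277 miRNAs).

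The miR-125 members rose as well. miR-125a-5p went from 11.3, 9.07 and 9.96 scaled reads to 164, 104 and 87.9, a log2 change of 3.54 (SE 0.45, edgeR adjusted p = 1.0e-10). miR-125b-5p went from 11.3, 20.2 and 9.96 scaled reads to 73.2, 79.1 and 33.8, a log2 change of 2.15 (SE 0.43, edgeR adjusted p = 1.0e-05). Neither set of groups overlapped. The opposite strand miR-125b-1-3p, which only MIR125B1 gives, went from a mean of 4.32 ± 2.39 to 65.9 ± 22.8 scaled reads (SD, n = 3), a log2 change of 3.92 (SE 0.46).

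The order of the members changed with the plasmid. With empty plasmid miR-100-5p led and miR-10a-5p was next, and their libraries did not overlap, with a ratio of means of 4.95. With wild type miR-10a-5p had the higher mean, though its range of scaled reads overlapped that of miR-100-5p. Within each wild-type library it had more reads than miR-100-5p, at 6175, 4242 and 3268 against 3682, 2913 and 2444. The ratio of miR-10a-5p to miR-10b-5p reads, which needs no scaling, was higher with wild type than with empty plasmid by 1.30 on the log2 scale, without overlap. That is the most that 3 libraries against 3 can show by an exact two-sided permutation test, whose smallest p is 0.1. All 54 ratio tests made (9 ratios in 6 comparisons) had adjusted p-values of at least 0.174, and 31 of them showed no overlap. The share without overlap among other pairs of miRNAs was not computed, so the 31 cannot be read as a trait of the family. The tests share libraries and miRNAs, and some of the ratios were chosen after the values had been seen.

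m4 against wild type asks how the family depends on what m4 alters. Of the 8 members other than miR-10a-3p, 6 fell by edgeR's test, and miR-99a-5p and miR-125b-5p were not called. Over all 310 miRNAs, 34.2% were called lower and 3.55% higher. The groups did not overlap for 6 of the 8, against 42.3% of all miRNAs. The median log2 change was -1.85 over the 8 members and -0.20 over all miRNAs. The 8 include miR-99a-5p, which entered the test through the m4 libraries.

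**Figure D2:**
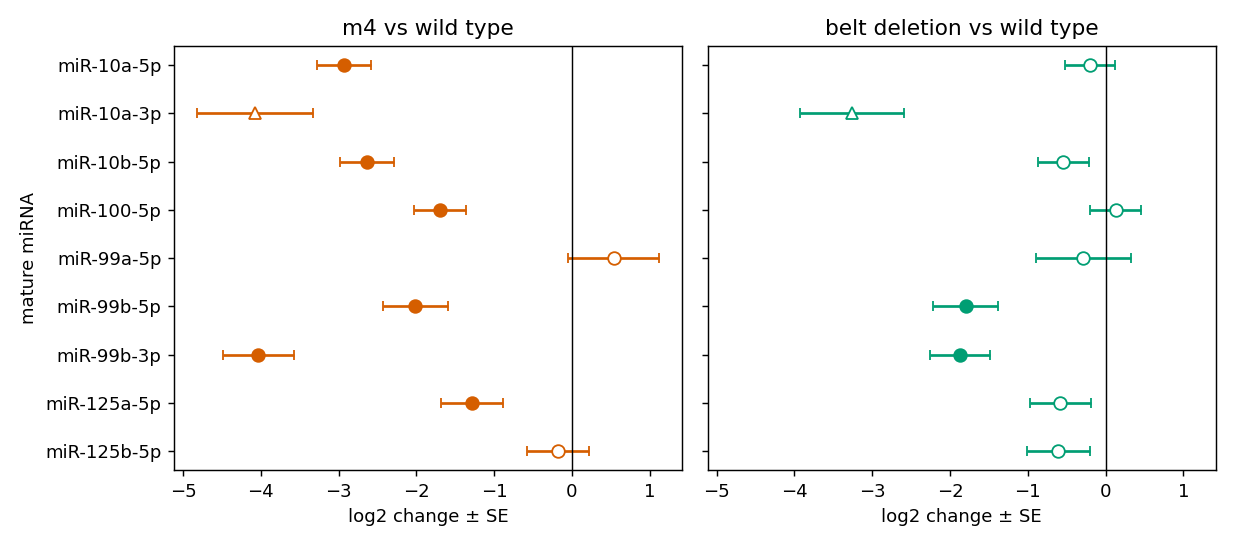
Log2 changes of the 9 members against wild type for m4 and for the belt deletion, with SE bars from the fit of 12 libraries; filled circles were called (adjusted p under 0.05) and open circles were not. The open triangle is miR-10a-3p, which passed the filter through wild type alone and is shown as a description; with the belt deletion the 2 called members are miR-99b-3p at -1.87 and miR-99b-5p at -1.80.

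Among the 5p members, miR-10a-5p and miR-10b-5p kept the smallest part of their wild-type level. miR-10a-5p was at 608, 794 and 1046 scaled reads with m4, all below the lowest wild-type library. That is 13.1% ± 3.52 (SD, n = 3) of the wild-type mean, a log2 change of -2.93 (SE 0.35, edgeR adjusted p = 4.3e-11). miR-10b-5p was at 81.5, 97.0 and 122.8 scaled reads, or 16.1% ± 3.35, a log2 change of -2.63 (SE 0.35, edgeR adjusted p = 1.6e-09). miR-10a-3p had 1, 3 and 0 reads with m4, all below the wild-type libraries. In the fit without a filter its log2 difference was -4.08 (SE 0.76, edgeR adjusted p = 2.1e-06 over 1277 miRNAs).

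Both strands of mir-99b fell. miR-99b-5p was at 50.4, 85.9 and 119 scaled reads with m4, 24.8% ± 9.99 of the wild-type mean, with a log2 change of -2.01 (SE 0.42, edgeR adjusted p = 0.00011). miR-99b-3p was at 2.15, 5.54 and 11.5 scaled reads, 6.19% ± 4.58 of the wild-type mean, with a log2 change of -4.03 (SE 0.46, edgeR adjusted p = 1.2e-11). Neither strand overlapped with wild type. miR-100-5p was at 846, 1251 and 1733 scaled reads, 30.9% ± 10.7 of the wild-type mean, with a log2 change of -1.70 (SE 0.34, edgeR adjusted p = 2.2e-05).

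miR-125a-5p was also called lower, at 55.8, 29.6 and 61.4 scaled reads with m4 and a log2 change of -1.29 (SE 0.40, edgeR adjusted p = 0.0070). The call was lost without wild type replicate 1 (adjusted p = 0.093) and without m4 replicate 2 (adjusted p = 0.059). The seed partner miR-125b-5p was at 48.3, 49.9 and 65.2 scaled reads with m4, inside the range of wild type, and its log2 difference of -0.18 (SE 0.40) was not called (edgeR adjusted p = 0.76). The sign of that difference turned positive under other scalings, up to 0.92 with total-count scaling. miR-99a-5p was at 8.58, 26.8 and 15.3 scaled reads, and its log2 difference of 0.53 (SE 0.58) was not called.

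Ratios of 2 miRNAs within a library need no scaling. The ratio of miR-10a-5p to miR-125b-5p, chosen after the values had been seen, was 100.4, 95.3 and 107 in the wild-type libraries and 12.5, 15.8 and 15.9 with m4. It changed by -2.79 on the log2 scale, without overlap (exact permutation p = 0.1, n = 3 against 3). Within the chromosome 11 cluster, the ratio of miR-100-5p to miR-125b-5p changed by -1.60 from wild type to m4, also without overlap. miR-125b-5p can also come from chromosome 21. The strand that only MIR125B1 gives, miR-125b-1-3p, differed by -0.90 (SE 0.39) on the log2 scale between m4 and wild type and was not called (edgeR adjusted p = 0.060).

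m4 against empty plasmid sets the libraries with the mutant beside those without DROSHA. These libraries do not measure the amount of DROSHA protein. Of the 9 members 8 were called higher, where 41.0% of all 310 miRNAs were. The groups did not overlap for 7 members and for 47.1% of all miRNAs, and the median log2 change was 1.92 over the members and 0.83 over all. Both counts and the median include miR-99a-5p. It entered the test through the m4 libraries, so a rise with m4 was in part built into its selection. miR-10a-5p rose by 3.58 (SE 0.36) on the log2 scale, miR-10b-5p by 2.53 (SE 0.36), miR-125a-5p by 2.26 (SE 0.44) and miR-125b-5p by 1.97 (SE 0.42). The edgeR adjusted p was at most 8.5e-05 for each of the 4. miR-100-5p rose by 1.92 (SE 0.34) and miR-99b-5p by 1.85 (SE 0.43). The calls of miR-99a-5p (1.77, SE 0.59, edgeR adjusted p = 0.012) and miR-99b-3p (1.66, SE 0.61, edgeR adjusted p = 0.022) rest on few reads. Without a filter the log2 difference of miR-99a-5p was 1.77 (SE 0.55, edgeR adjusted p = 0.016 over 1277 miRNAs). For miR-99a-5p the call was lost without empty replicate 2 or m4 replicate 2, and for miR-99b-3p without empty replicate 3 or m4 replicate 3. This comparison shares its libraries with those above, so its values are not independent of them.

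Belt deletion against wild type asks how the family depends on the belt of DROSHA. Of the 8 members other than miR-10a-3p, 2 fell, miR-99b-3p and miR-99b-5p, and the other 6 were not called. Over all 310 miRNAs, 9.35% were called lower and 3.23% higher. The groups did not overlap for 1 of the 8, miR-99b-3p, against 32.3% of all miRNAs. The median log2 difference was -0.56 over the 8 members and 0.03 over all.

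The abundant 5p members were near their wild-type level. miR-10a-5p was at 4670, 6768 and 4808 scaled reads with the belt deletion, inside the range of wild type, with a log2 difference of -0.20 (SE 0.32, edgeR adjusted p = 0.73). miR-100-5p was at 3226, 6411 and 3927 scaled reads, with a log2 difference of 0.13 (SE 0.33, edgeR adjusted p = 0.84). miR-10b-5p was at 377, 531 and 375 scaled reads, with a log2 difference of -0.54 (SE 0.33, edgeR adjusted p = 0.29), and its groups overlapped too.

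miR-10a-3p was at 2.62, 2.51 and 2.56 scaled reads with the belt deletion, from 3, 2 and 3 reads, and at 32.4, 21.6 and 22.5 scaled reads with wild type. The belt deletion level was 10.04% ± 0.215 (SD, n = 3) of the wild-type mean, and in the fit without a filter the log2 difference was -3.26 (SE 0.68, edgeR adjusted p = 0.00014 over 1277 miRNAs). The 5p strand of the same hairpin was within the range of wild type, and the ratio of both strands was tested separately, over hairpins chosen by the reads of both arms together.

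Both strands of mir-99b fell with the belt deletion. miR-99b-3p was at 22.7, 37.6 and 24.7 scaled reads, below every wild-type library, with a log2 change of -1.87 (SE 0.39, edgeR adjusted p = 0.00013). miR-99b-5p was at 52.3, 184.3 and 60.6 scaled reads, and belt deletion replicate 2 reached the lowest wild-type library, at 183.6. Its log2 change was -1.80 (SE 0.42, edgeR adjusted p = 0.0012). Over leaving out each library in turn it ranged from -2.60 to -1.49 and stayed called. Belt deletion replicate 2 was also the highest of its group for 7 other members, all but miR-10a-3p, and for the summed epithelial markers. The part of this library in the group values was not tested.

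miR-125a-5p, from the same cluster as mir-99b, was at 28.8, 105.3 and 104.9 scaled reads with the belt deletion, with a log2 difference of -0.58 (SE 0.39, edgeR adjusted p = 0.35). miR-125b-5p was at 17.4, 65.2 and 40.1 scaled reads, with a log2 difference of -0.61 (SE 0.40, edgeR adjusted p = 0.34). miR-99a-5p was at 6.98, 21.3 and 2.56 scaled reads, with a log2 difference of -0.28 (SE 0.61). All 3 overlapped with wild type.

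The neighbours of mir-99b on chromosome 19 allow a comparison within 1 cluster. let-7e-5p, a let-7 strand from the hairpin between MIR99B and MIR125A, was at 75.6, 149 and 67.6 scaled reads with wild type and at 73.3, 97.8 and 111.7 with the belt deletion. The groups overlapped, with a log2 difference of -0.04 (SE 0.39, edgeR adjusted p = 0.97). The read ratio of miR-99b-5p to let-7e-5p was 6.15, 2.52 and 2.70 in the wild-type libraries and 0.716, 1.88 and 0.544 with the belt deletion. It changed by -1.95 on the log2 scale, without overlap (exact permutation p = 0.1, n = 3 against 3). The ratio of miR-99b-5p to miR-125a-5p changed by -1.18, also without overlap. From wild type to m4 the ratio of miR-99b-5p to let-7e-5p changed by -1.24, without overlap, while that to miR-125a-5p differed by -0.69, with overlap (exact permutation p = 0.3, n = 3 against 3).

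**Figure D3:**
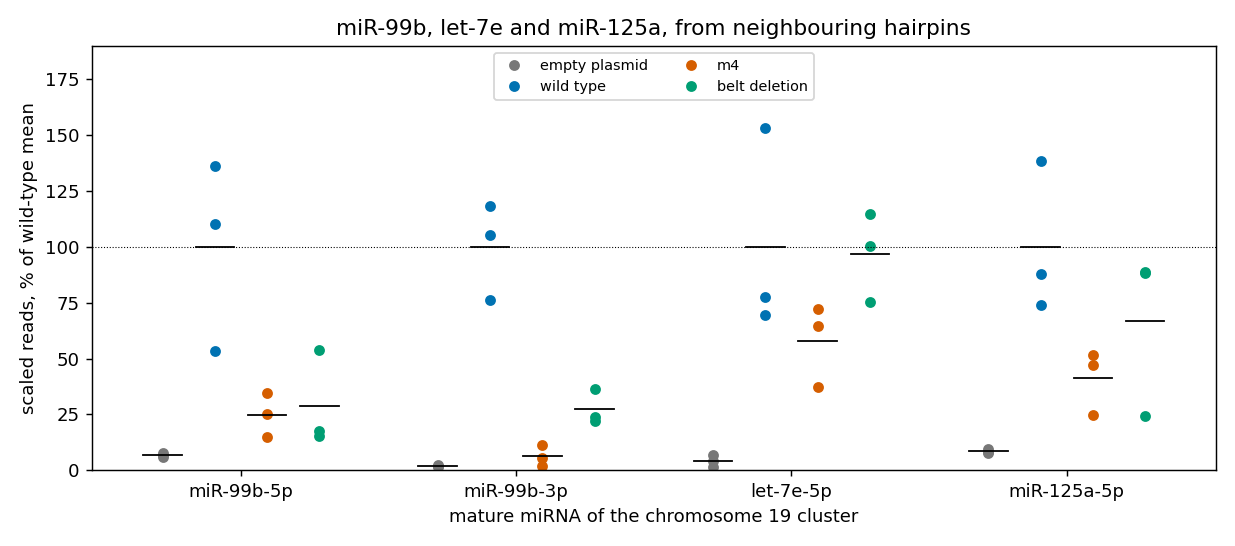
Scaled reads as a percent of the wild-type mean (linear axis, dotted line at 100) for the miRNAs of the chromosome 19 cluster, 1 point per library and a bar at each group mean (n = 3). miR-99b-5p had a mean of 28.9% with the belt deletion and let-7e-5p one of 96.7%.

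The seed partners miR-99b-5p and miR-100-5p parted in the belt deletion. Their ratio, chosen after the values had been seen, was 0.106, 0.0722 and 0.0669 in the wild-type libraries and 0.0164, 0.0288 and 0.0155 with the belt deletion. It changed by -2.04 on the log2 scale, without overlap (exact permutation p = 0.1, n = 3 against 3). From wild type to m4 it differed by -0.28, with overlap (exact permutation p = 0.3, n = 3 against 3).

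Against empty plasmid 7 of the 9 members rose with the belt deletion, where 42.6% of all 310 miRNAs were called higher. The groups did not overlap for 7 members and for 50.0% of all miRNAs, and the median log2 change was 2.96 over the members and 0.72 over all. miR-10a-5p rose by 6.31 (SE 0.41) on the log2 scale and miR-100-5p by 3.74 (SE 0.37), beside 6.51 and 3.62 with wild type. miR-99b-5p rose by 2.06 (SE 0.43), beside 3.86 with wild type. The 2 members not called were miR-99a-5p (0.96, SE 0.63, edgeR adjusted p = 0.25) and miR-10a-3p (2.19, SE 1.05, edgeR adjusted p = 0.087). The call of miR-125b-5p (1.54, SE 0.42, edgeR adjusted p = 0.0014) was lost without belt deletion replicate 2 (adjusted p = 0.059). Both comparisons use the same empty libraries.

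Set directly against m4, the belt deletion gave higher levels of 4 members, where 25.8% of all 310 miRNAs were called higher. No overlap was seen for 4 members and for 34.8% of all miRNAs. The median log2 difference was 0.81 over the members and 0.14 over all. The median of the members is the value of miR-10a-3p, which rests on few reads, and over the 8 others it was 1.26. Both sets include miR-99a-5p, which entered the test through the m4 libraries. The 4 were miR-10a-5p (2.73, SE 0.34), miR-99b-3p (2.16, SE 0.47), miR-10b-5p (2.09, SE 0.34) and miR-100-5p (1.82, SE 0.34), with edgeR adjusted p-values of at most 0.00011. miR-99b-5p differed by 0.21 (SE 0.41) and was not called, with a sign that turned under 4 other scalings. miR-10a-3p differed by 0.81 (SE 0.96) and was not called.

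The share of 3p reads among both arms of a hairpin needs no scaling either. For mir-10a it was 0.435%, 0.282% and 0.608% in the wild-type libraries (exact 95% binomial intervals 0.287 to 0.633, 0.146 to 0.492 and 0.372 to 0.938). With the belt deletion it was 0.0560%, 0.0370% and 0.0532% (intervals 0.0116 to 0.164, 0.00448 to 0.134 and 0.0110 to 0.155). The intervals cover counting error only. The shares did not overlap between the groups.

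The log2 ratio of 5p to 3p reads of mir-10a rose by 2.92 (SE 0.70) from wild type to the belt deletion, by limma over 72 hairpins with a pseudocount of 0.5 (adjusted p = 0.0088). Of the 72 hairpins, 8.33% were called in either direction and 4.17% toward 5p. The call rests on all 3 wild-type libraries, since the adjusted p was 0.053, 0.052 and 0.063 without wild type replicate 1, 2 and 3. With m4 the share was 0.176%, 0.348% and 0%, where 0 of 818 reads allows a share of up to 0.367% by the limit of 3 reads and up to 0.450% by the upper bound of the exact 95% interval, and the ratio differed from wild type by 1.22 (SE 0.70) without a call (limma adjusted p = 0.26). Against empty plasmid the ratio rests on the 2 reads of the 3p arm that the empty libraries held in all. It differed by 1.30 (SE 0.70, limma adjusted p = 0.19) with wild type and by 2.52 (limma adjusted p = 0.037) with m4, where 9.72% of the 72 hairpins were called. With the belt deletion it differed by 4.22 (limma adjusted p = 0.00014), where 33.3% were called. The m4 call was lost without empty replicate 1 or 3, wild type replicate 1 or 2, or m4 replicate 3 (adjusted p = 0.054 to 0.18). mir-100, whose 3p arm had 0 reads in each empty library, was also called toward 5p over empty plasmid. Its ratio differed by 2.12 (limma adjusted p = 0.012) with wild type and by 2.69 (limma adjusted p = 0.0022) with the belt deletion. With so few 3p reads, ratios against empty plasmid follow the 5p reads and the pseudocount. A shift between arms cannot be read from them.

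For mir-99b the 3p arm held a far larger share, and it moved with the plasmid in another way. It was 7.51% ± 2.08 (SD, n = 3) in the empty group, 24.5% ± 5.56 in wild type, 6.32% ± 2.38 in m4 and 25.4% ± 7.34 in the belt deletion group. Every wild-type and belt deletion library was above every empty and m4 library. The log2 ratio of 5p to 3p reads changed by -1.79 (SE 0.60, limma adjusted p = 0.023) from empty to wild type, where 30.6% of the 72 hairpins were called. It changed by -1.85 (limma adjusted p = 0.020) from empty to the belt deletion, where 33.3% were called. From wild type to m4 it changed by 2.16 (limma adjusted p = 0.026), where 6.94% were called, and from m4 to the belt deletion by -2.22 (limma adjusted p = 0.029), where 8.33% were called.

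**Figure D4:**
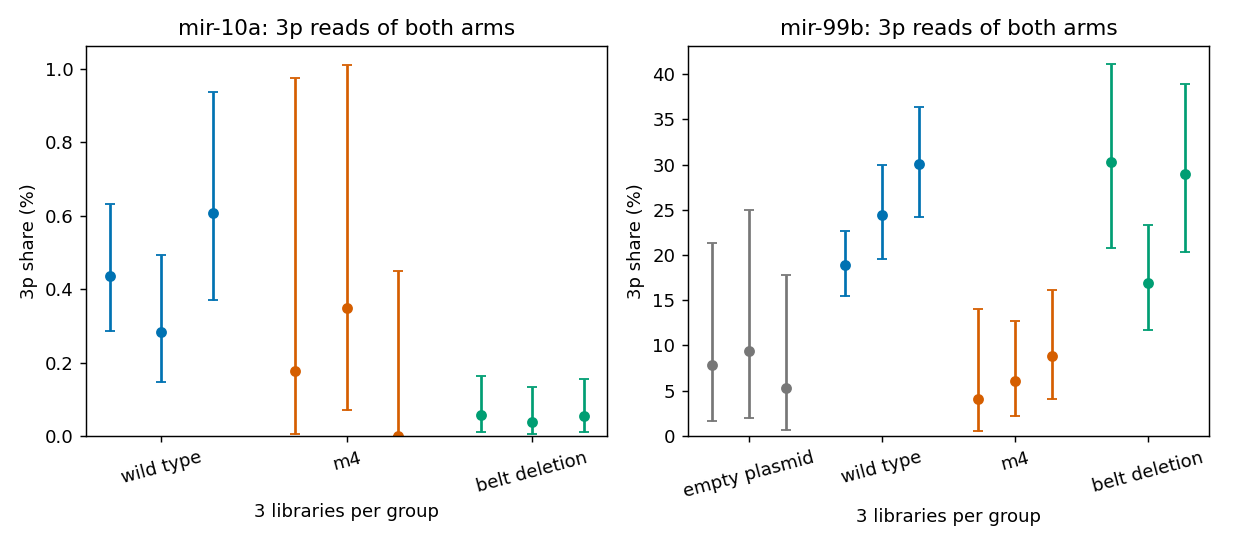
Share of 3p reads among the reads of both arms (%, linear axes of different range) for mir-10a and mir-99b in each library, with exact 95% binomial intervals; the empty libraries are left out for mir-10a, where they hold 2 reads of the 3p arm. The belt deletion points lie below the wild-type points for mir-10a and among them for mir-99b.

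Each of these 4 mir-99b calls was lost on leaving out single libraries. From empty to wild type it was lost without empty replicate 3 (adjusted p = 0.10) or wild type replicate 3 (0.11), and from empty to the belt deletion without empty replicate 3, belt deletion replicate 1 or belt deletion replicate 3 (0.074 to 0.081). From wild type to m4 it was lost without wild type replicate 2 or 3 or m4 replicate 1 (0.050 to 0.14), and from m4 to the belt deletion without m4 replicate 1, belt deletion replicate 1 or belt deletion replicate 3 (0.077 to 0.17). Between wild type and the belt deletion the ratio differed by -0.06 (SE 0.60, limma adjusted p = 0.97), so the 2 strands of mir-99b were lower together there.

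Of the other 3p arms, mir-100 gave 2 reads of its 3p arm in 12 libraries, and miR-10b-3p was seen in 2 of the 3 wild-type libraries, in 1 m4 library and in no other. miR-125a-3p had means of 1.46, 8.05, 6.06 and 12.5 scaled reads in the empty, wild-type, m4 and belt deletion groups and did not pass the filter. miR-125b-1-3p was not scarce beside its 5p strand, with means of 65.9 scaled reads in wild type and 80.1 in the belt deletion group, against 62.0 and 40.9 for miR-125b-5p, whose reads can also come from MIR125B2. It was 1.17 (SE 0.39) higher on the log2 scale with the belt deletion than with m4 (edgeR adjusted p = 0.015). This call was lost without belt deletion replicate 1 (adjusted p = 0.077) or 2 (0.051) or m4 replicate 1 (0.082) or 2 (0.052). It was also lost with TMM scaling (0.82, adjusted p = 0.066), summed reference reads (0.84, adjusted p = 0.26) and total counts (0.17, adjusted p = 0.73). From wild type to m4 miR-125b-1-3p was not called, but it was without miR-320 in the reference (-0.99, adjusted p = 0.032) and without wild type replicate 2 (-1.14, adjusted p = 0.033).

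Partners on the same primary transcripts and neighbours in the HOX clusters were listed to set beside the members. Of 6 listed cluster partners 3 were tested, let-7e-5p, let-7c-5p and let-7a-5p. All 3 rose with wild type over empty plasmid, by 4.55 (SE 0.48), 2.24 (SE 0.41) and 3.08 (SE 0.33) on the log2 scale, where 42.6% of all 310 miRNAs were called higher. With m4 let-7a-5p fell against wild type by 1.19 (SE 0.31, edgeR adjusted p = 0.0010), and the other 2 were not called. With total counts the call of let-7a-5p was lost (-0.17, edgeR adjusted p = 0.61). Between the belt deletion and wild type the log2 differences were -0.04, 0.19 and -0.30, with edgeR adjusted p-values of 0.56 or more. Reads of let-7a-5p can also come from other let-7a genes, and the line kept was that of the hairpin let-7a-3, not the one in MIR100HG. The 3p strand of MIRLET7A2, let-7a-2-3p, had at most 2 reads in any library.

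Of 6 listed HOX-cluster neighbours 2 were tested. miR-196b-5p, from the HOXA cluster, had means of 101 ± 31.7 scaled reads (SD, n = 3) in wild type, 18.4 ± 1.81 in m4 and 39.1 ± 10.03 in the belt deletion group. It fell by 2.45 (SE 0.40, edgeR adjusted p = 3.1e-07) with m4 and by 1.37 (SE 0.37, edgeR adjusted p = 0.0047) with the belt deletion, both on the log2 scale against wild type. The second call was lost without belt deletion replicate 1 (adjusted p = 0.066) or wild type replicate 1 (adjusted p = 0.071). miR-196a-5p was called in neither mutant against wild type.

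The profile most like that of the family over the 12 libraries was also that of miR-196b-5p. Likeness was measured as Pearson's r between log2(scaled reads + 1) and the mean of the 9 standardised member profiles, as a description, since the libraries of a group share their plasmid. It was 0.981 for miR-196b-5p, 0.978 for miR-532-5p, 0.968 for let-7g-5p and 0.967 for both miR-20a-5p and miR-423-3p. Among the members, likeness to the mean of the other 8 was 0.907 to 0.948 for 6 of them and lower for miR-125b-5p (0.783), miR-10a-3p (0.738) and miR-99a-5p (0.451).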

How the data were processed

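Per the labels' protocols, a 15% gel was used to isolate 19 to 24 nt RNA out of 10 µg of total RNA, which was made into libraries with a NEBNext kit. The deposited values are raw counts, 1 line for each pairing of a mature miRNA with a hairpin. The submitters' processing notes name Bowtie2, cutadapt and hg38. The counter, its settings and the annotation are not given in the sources used here. The table had 1409 lines, 978 hairpins and 1286 names, and 7220 blank cells were read as 0. A name listed under several hairpins kept its line of highest count. Merging 9 pairs whose reads matched (within 5 reads or 5%) left 1277 miRNAs. Table totals ran from 132667 to 407461 reads per library.

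Size factors were median ratios over 5 features that mature without DROSHA: miR-1224, miR-1226, miR-320 (summed), miR-484 and miR-877. One edgeR 4.0.16 fit (R 4.3.3, quasi-likelihood F test, robust) covered 12 libraries without covariates. The function filterByExpr kept 310 miRNAs, and the Benjamini-Hochberg adjustment ran over these 310. Each SE is the log2 change over the root of F. Arm ratios, log2 of (5p + 0.5) over (3p + 0.5), were tested with limma 3.58.1 over 72 hairpins with at least 20 reads of both arms together in each library. Ratios of 2 miRNAs were compared by exact two-sided permutation tests in SciPy 1.17.1. DESeq2 1.42.0 was an alternative. The fits were tested on simulated data. Host genes come from GENCODE 29.

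The members and lists were chosen with earlier results of these data known. The text names all members, the other arms of their hairpins, cluster partners, the most abundant HOX-cluster neighbours, and the 5 other miRNAs with the most similar profile. Alternatives were other scalings, filters, pseudocounts, DESeq2's test, the sum over hairpin lines, a replicate block and leaving out each library.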

Additional observations from a re-analysis of the deposited data

How the results depend on the processing

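The falls of miR-99b-3p and miR-99b-5p from wild type to the belt deletion stayed called under all 11 other settings and on leaving out each of the 12 libraries. That of miR-10a-3p, which entered the main test through wild type alone, also passed without a filter on low counts, and DESeq2 gave it no adjusted p. Scaling moved the medians of all miRNAs: by -0.80 on the log2 scale with TMM for wild type against empty plasmid, and by 1.05 with total counts for m4 against wild type. With total counts miR-99a-5p was called higher with m4 than with wild type (1.43), and miR-99a-5p and miR-125b-5p lower with the belt deletion than with m4 (-1.69 and -1.45). With TMM, miR-99a-5p and miR-99b-3p lost their rise with m4 over empty plasmid (adjusted p = 0.064 and 0.090, and 0.10 and 0.13 with DESeq2 size factors; for miR-99b-3p also 0.069 without a filter) and miR-125b-5p its rise with the belt deletion (0.11). miR-125a-5p lost its fall with m4 with TMM, total counts and summed reference reads (adjusted p = 0.053, 0.80 and 0.14).

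Signs that turned belong to uncalled differences, apart from let-7a-5p. Under total counts, m4 against wild type gave 0.92 for miR-125b-5p, 0.13 for miR-125b-1-3p, 0.23 for let-7e-5p, 0.73 for let-7c-5p and 0.43 for miR-196a-5p. With total counts, belt deletion against m4 gave -0.0056 for miR-10a-3p, -0.78 for miR-99b-5p, -0.39 for miR-125a-5p, -0.22 for let-7e-5p, -0.52 for let-7c-5p and -0.10 for let-7a-5p (main 0.88, called, but lost without belt deletion replicate 1 or 2 or m4 replicate 1). miR-125b-5p in m4 against wild type was 0.052 with DESeq2 size factors and 0.23 with TMM, and let-7c-5p was 0.053 with TMM. miR-99b-5p in belt deletion against m4 was -0.0785 with DESeq2 size factors, -0.20 with TMM and -0.0842 with summed reference reads, and miR-196a-5p was 0.014 with miR-320 left out of the reference. Belt deletion against wild type gave 0.012 for let-7e-5p with TMM and 0.012 with total counts, and -0.080 for miR-100-5p with summed reference reads. The causes were not tested.

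Calls over all miRNAs moved with the scaling. Lower calls for wild type against empty plasmid went from 2 to 88 with TMM, 87 with DESeq2 size factors, 71 with total counts and 1 with summed reference reads, and for the belt deletion against empty plasmid from 1 to 47, 45, 33 and 0, and to 4 with only the 2 groups fitted and 2 without miR-320. For m4 against empty plasmid they went from 3 to 12 with TMM, 15 with DESeq2 size factors and 1 with summed reference reads. Higher calls for m4 against wild type went from 11 to 54, 43, 133 and 6 with TMM, DESeq2 size factors, total counts and the sum, and to 6 without a filter, without miR-320 and with a replicate block and 7 with 2 groups; lower calls went from 106 to 60 with total counts. Belt deletion against m4 had 80 higher and 4 lower calls, 28 lower with TMM, 14 with DESeq2 size factors, 47 higher and 121 lower with total counts, and 53 higher with the sum. Belt deletion against wild type had 10 higher calls, 17 with TMM and 5 with the sum. Higher calls for wild type against empty plasmid went from 132 to 198 without a filter.

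With a pseudocount of 1 the mir-10a arm ratio was called for wild type against empty plasmid (1.86, beside 1.30 with adjusted p = 0.19) and belt deletion against m4 (2.03, beside 1.71 with adjusted p = 0.13). Requiring 20 reads of each arm over the 12 libraries was chosen after seeing the data. No pairing of libraries by replicate number was seen. Deviations of same-numbered libraries correlated at -0.247 to 0.133 over 18 pairs, and those of other pairs at -0.316 to 0.416. With 3 libraries per group this cannot exclude shared handling by number. The fit with a replicate block changed no call of a member.

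Leaving out 1 library gave these ranges for 5p to 3p ratios: mir-99b -2.01 to -1.57 (wild type against empty), -2.19 to -1.63 (belt deletion against empty), 1.93 to 2.41 (m4 against wild type), -0.41 to 0.16 (belt deletion against wild type) and -2.56 to -1.99 (belt deletion against m4); mir-10a 1.71 to 3.08 (m4 against empty), 2.66 to 3.21 (belt deletion against wild type) and 1.15 to 2.52 (belt deletion against m4). Members called lower in belt deletion against m4 ranged from 0 to 1. Read ratios for m4 against empty ranged from -0.79 to 0.049 (miR-99b-5p to miR-125a-5p), -1.05 to 0.20 (miR-99a-5p to let-7c-5p), -0.55 to 0.12 (miR-100-5p to miR-125b-5p) and -0.52 to 0.16 (miR-99a-5p to miR-100-5p). For belt deletion against m4 they ranged from -0.95 to 0.053 (miR-99b-5p to miR-125a-5p) and -0.23 to 0.65 (let-7e-5p to miR-125a-5p), and for wild type against empty from -0.030 to 0.30 (miR-99b-5p to miR-100-5p). Log2 differences ranged from -0.047 to 1.45 for miR-99a-5p in belt deletion against empty, -0.48 to 0.025 for miR-125b-5p in m4 against wild type, and, in belt deletion against wild type, -1.29 to 0.21 for miR-99a-5p, -0.21 to 0.33 for miR-100-5p and -0.25 to 0.40 for let-7e-5p. In belt deletion against m4 they ranged from -0.59 to 0.53 for miR-99b-5p and -0.43 to 0.28 for miR-196a-5p. Depth limits miR-99a-5p and miR-10a-3p, which had at most 29 and 27 reads in any library.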
